A study of Mus musculus with 4 samples.

Results

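The regions described here are sites of phospho-CREB binding that hold a full consensus cAMP response element (CRE), the 8 bp palindrome TGACGTCA, at their centre. The 4 deposited peak lists were joined into 28335 regions wherever peaks shared 1 bp or more, and a region was kept when an exact match to the palindrome lay within 100 bp of its centre in the mm9 genome. This gave 1000 of 28335 regions (3.53%, 95% Wilson interval 3.32 to 3.75%), between 303 and 568 bp wide with a median of 330 bp. The rule used the genome sequence at the peaks and neither the treatment nor the height of a peak, so the call pattern, score rank and genomic place of the regions were free to differ from those of the other 27335.

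The study sequenced DNA immunoprecipitated with an antibody to phospho-CREB from MC3T3-E1, a mouse calvarial cell line that serves as a model of pre-osteoblasts. The cells had received 100 nM forskolin or the DMSO vehicle for 1 h, with 2 libraries per treatment that the labels call biological replicates. Forskolin switches on adenylyl cyclase directly and so raises cAMP without a hormone. The labels name no genetic change, clone or donor in either group. The antibody recognised the phosphorylated form of CREB, so a peak does not separate more CREB on the DNA from more phosphorylation of CREB already there.

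CREB is a bZIP transcription factor that binds the CRE as a dimer through contacts with both sides of the palindrome. Cyclic AMP releases the catalytic subunits of protein kinase A, which phosphorylate CREB in the nucleus, and the phosphorylated form recruits the coactivators CBP and p300, while CRTC coactivators join through the bZIP domain. Methylation of the CpG in the middle of the element is known to block binding, and in osteoblasts the pathway is best known as the main route of parathyroid hormone signalling.

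The sequences below show the element in its surroundings, as read from the mm9 genome in the direction of the nearest protein-coding gene, with the full CRE in capitals. The first set holds high-ranking regions with a peak in both forskolin libraries and in neither vehicle library.
Pik3cd, chr4:149081830-149081889, minus strand: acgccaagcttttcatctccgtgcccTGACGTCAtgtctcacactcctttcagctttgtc
9430023L20Rik, chr15:101110136-101110195, plus strand: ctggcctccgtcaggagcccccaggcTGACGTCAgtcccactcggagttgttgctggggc
Pde10a, chr17:8680820-8680879, plus strand: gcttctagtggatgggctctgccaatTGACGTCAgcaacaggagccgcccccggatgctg
Nedd9, chr13:41633743-41633802, minus strand: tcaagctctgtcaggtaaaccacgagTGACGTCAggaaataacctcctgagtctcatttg
Maml3, chr3:51852150-51852209, minus strand: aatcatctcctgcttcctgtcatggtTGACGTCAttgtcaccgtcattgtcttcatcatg
The next set holds the regions that ranked near the top of all 4 lists, where the base before the palindrome or after it is often the G or C that extends it to GTGACGTCAC.
Wnt7a, chr6:91390907-91390966, minus strand: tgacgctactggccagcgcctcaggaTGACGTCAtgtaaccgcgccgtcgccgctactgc
Tinf2, chr14:56300677-56300736, minus strand: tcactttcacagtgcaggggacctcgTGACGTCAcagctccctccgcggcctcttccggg
Zfand2a, chr5:139960537-139960596, minus strand: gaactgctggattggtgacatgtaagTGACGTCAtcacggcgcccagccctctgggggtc
Aasdh, chr5:77334530-77334559, minus strand: cgacgctggagTGACGTCAcgggcgcccga
C87436, chr6:86422229-86422258, plus strand: gccccgcgaggTGACGTCAccacgctgccg
Magohb, chr6:131243232-131243261, minus strand: gcctgcgcccgTGACGTCActacctcgcgc
Mxi1, chr19:53388794-53388853, plus strand: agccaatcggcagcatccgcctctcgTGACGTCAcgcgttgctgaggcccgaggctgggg
The third set holds regions that were called in every library and ranked far higher under forskolin.
Map2k6, chr11:110504068-110504127, plus strand: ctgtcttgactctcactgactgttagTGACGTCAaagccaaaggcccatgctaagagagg
Kcne4, chr1:78808922-78808981, plus strand: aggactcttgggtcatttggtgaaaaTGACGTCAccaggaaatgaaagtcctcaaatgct
Trpm8, chr1:90257876-90257935, plus strand: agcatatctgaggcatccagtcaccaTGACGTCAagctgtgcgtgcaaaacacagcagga
Akap13, chr7:82812078-82812137, plus strand: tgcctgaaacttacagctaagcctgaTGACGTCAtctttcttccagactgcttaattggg
The fourth set holds the sites at textbook CREB target genes.
Nr4a2, chr2:56967463-56967522, minus strand: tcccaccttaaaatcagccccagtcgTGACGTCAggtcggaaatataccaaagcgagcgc
Ccna2, chr3:36470955-36470984, minus strand: ggcgcttctggTGACGTCAcggactccgga
Per1, chr11:68910678-68910737, plus strand: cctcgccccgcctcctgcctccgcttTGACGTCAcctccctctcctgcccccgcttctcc
Scg2, chr1:79436651-79436680, minus strand: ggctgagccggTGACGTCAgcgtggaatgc
Vgf, chr5:137506049-137506108, plus strand: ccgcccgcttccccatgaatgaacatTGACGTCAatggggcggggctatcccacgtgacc
Areg, chr5:91568538-91568597, plus strand: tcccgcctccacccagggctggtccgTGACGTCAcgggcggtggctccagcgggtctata
Gem, chr4:11631496-11631555, plus strand: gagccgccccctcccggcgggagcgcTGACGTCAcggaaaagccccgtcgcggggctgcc
The last set holds regions with several copies of the element.
Parm1, chr5:91987049-91987138, plus strand: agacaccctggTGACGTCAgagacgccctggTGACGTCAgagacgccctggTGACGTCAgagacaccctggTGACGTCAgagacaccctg
Tns1, chr1:73953893-73954019, minus strand: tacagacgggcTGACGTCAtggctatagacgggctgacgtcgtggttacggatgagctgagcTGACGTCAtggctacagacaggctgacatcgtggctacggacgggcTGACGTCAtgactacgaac
Csnk1g2, chr10:80084769-80084819, plus strand: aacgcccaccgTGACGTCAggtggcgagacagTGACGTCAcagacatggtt
Braf, chr6:39675525-39675572, minus strand: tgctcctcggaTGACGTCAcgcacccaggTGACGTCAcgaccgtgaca

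The palindrome stood at the middle of these regions far more closely than the rule required. The distance of the nearest CRE from the region centre had a median of 16.5 bp, 64.4% of the 1000 regions held it within 25 bp and 86.2% within 50 bp. In equally wide flanking windows, 2 kb away and clear of every region, 75 of 55777 held the palindrome (0.134%), so it was 26.2 times as frequent at region centres. Near the edge of the rule, 37 regions held their CRE over 80 bp from the centre, and 35 regions outside the rule held one within 120 bp. The whole match had to lie within 100 bp, so these 2 distance bins were not equally wide and their counts cannot show whether there was a step. Of the 37 regions 3 were forskolin-only and 23 had a peak in all 4 libraries, and of the 35 these were 9 and 18.

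**Figure D1:**
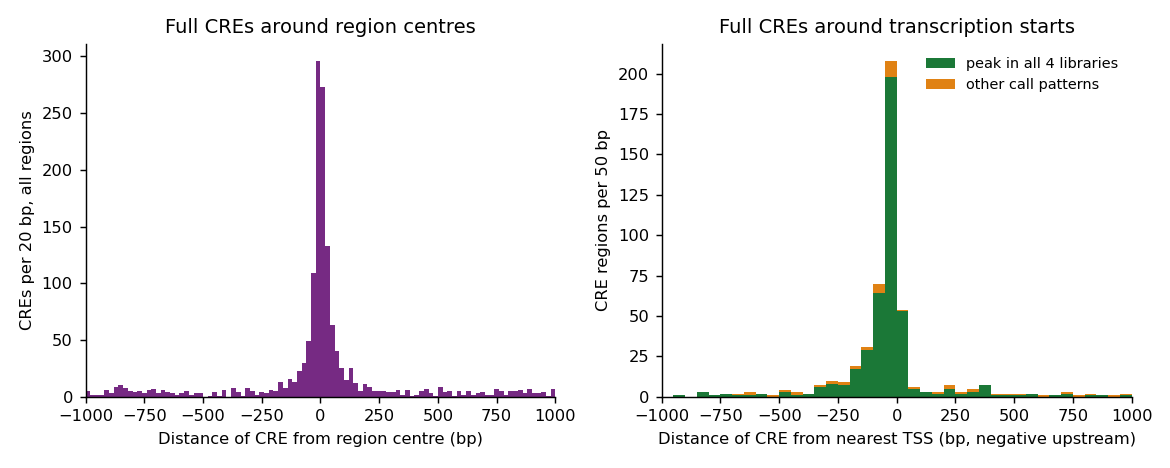
Left, number of full CREs per 20 bp at each distance (bp) from the centre of all 28335 regions, where the counts stand highest within 20 bp of the centre and decline past the 100 bp rule to low counts farther out. Right, number of CRE regions per 50 bp at each signed distance (bp) of the CRE from the nearest transcription start, where the 486 regions with a CRE within 1 kb pile up just upstream of the start, most of them with a peak in all 4 libraries (green).

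Sites 1 base away from the palindrome differed widely in frequency. Searched in the 27335 other regions, CGACGTCA was 23.4 times as frequent at centres as in the flanking windows, where only 13 of 55777 held it. The full CRE reached 26.2 times, but 3.53% of regions held the full CRE and 0.545% of the others held CGACGTCA. Of the 149 regions with CGACGTCA, 71.8% had a peak in all 4 libraries and 71.1% lay within 1 kb of a start. The flanking windows were not matched to the centres in CpG content. TTACGTCA reached 9.84 times, TGGCGTCA 8.53 times, and AGACGTCA 5.98 times. Sites that lose the central CpG stood lowest, at 3.11 times for TGATGTCA, 1.76 for TGAGGTCA and 1.08 for TGAAGTCA. There was no clear gap, since TGCCGTCA and TAACGTCA, which keep the CpG, stood at 3.275 and 4.455 times. The bare core TGACG was 4.19 times as frequent, and the AP-1 site TGAGTCA, bound by the related Fos and Jun factors, 4.07 times.

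The forskolin lists held more peaks with a CRE than the vehicle lists. A CRE lay within 100 bp of the centre of 982 of 25566 and 890 of 19371 peaks in forskolin replicates 1 and 2, against 638 of 14686 and 607 of 10180 peaks in vehicle replicates 1 and 2. The numbers averaged 936 ± 65.1 peaks in forskolin libraries and 622.5 ± 21.9 peaks in vehicle libraries (SD, n = 2 each), and the groups did not overlap. The exact two-sided permutation test gave p = 0.333, the smallest value that 2 libraries against 2 can reach.

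As a share of a list the treatments were not separated. CRE peaks made up 3.84% and 4.59% of the forskolin lists, against 4.34% and 5.96% of the vehicle lists, with means of 4.22 ± 0.533% and 5.15 ± 1.14% (SD, n = 2 each). The shares overlapped between the treatments, and the difference of -0.936 percentage points had an exact permutation p of 0.667. When each list was limited to its 10180 highest-scoring peaks, the length of the shortest list, the shares were 7.18% and 7.36% in the forskolin libraries, against 5.74% and 5.96% in the vehicle libraries. The groups then did not overlap, with a difference of 1.42 percentage points and an exact permutation p of 0.333, again the smallest possible. With the top 50% of each list the difference was -1.633 percentage points, the same sign as on the full lists. The sign thus changed when the lists were cut to equal numbers of peaks, and not when each was cut to that same percentage. The number of peaks per list differed by treatment.

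CRE peaks were among the highest of every list. The deposited score has no stated scale, so it was turned into a percentile, the share of peaks of the same list with a score at or below it. The median percentile of CRE peaks was 86.3 and 86.2 in the forskolin libraries and 88.3 and 86.0 in the vehicle libraries, while that of the other peaks lay between 49.0 and 49.7 in all 4. The gap averaged 37.4 ± 1.35 percentile points (SD, n = 4) and had the same sign in 4 of 4 libraries, with an exact sign-flip permutation p of 0.125, the smallest that 4 libraries allow. Among the 10% of peaks with the highest scores, the CRE share was 16.6% and 19% in the forskolin libraries and 19.8% and 24.4% in the vehicle libraries. In the lowest 10% it was 1.46% and 1.00% in the forskolin libraries and 1.57% and 1.32% in the vehicle libraries.

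**Figure D2:**
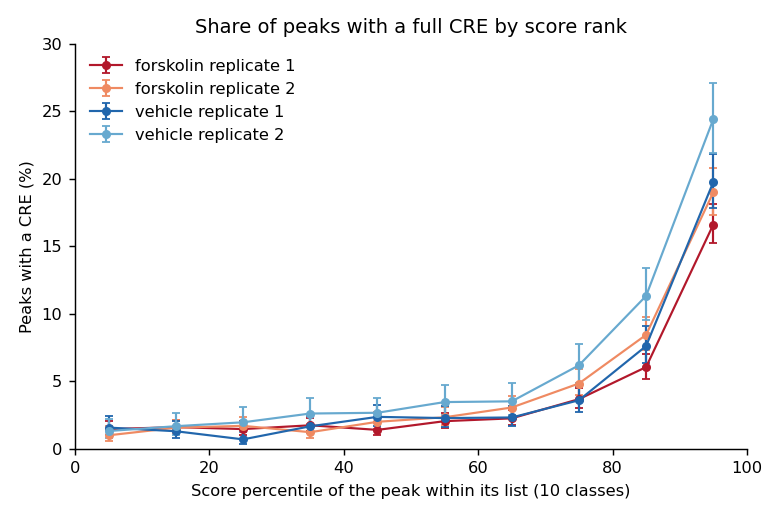
Share of peaks with a full CRE (%) against the score percentile of the peak within its own list, in 10 classes, for each of the 4 libraries (bars are 95% Wilson intervals, counting error only). In every library the share is low over most of the list and stands highest in the top class, at 16.6% and 19% under forskolin and 19.8% and 24.4% under vehicle.

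No region with a full CRE was called under vehicle alone. Of the 12922 regions with a peak in 1 or both forskolin libraries and in no vehicle library, 324 held a CRE (2.51%, 95% interval 2.25 to 2.79%). Of the 936 regions with a peak in 1 or both vehicle libraries and in no forskolin library, 0 did, for which the limit of 3 counts is a share of 0.3205% and the upper Wilson bound 0.409%. Regions called under both treatments held one in 676 of 14477 cases (4.67%). The core TGACG without the full palindrome followed the same order, at 25.7% of the regions called under forskolin alone and 8.76% of those called under vehicle alone.

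The same contrast was present in lists of equal length. With the 10180 highest peaks of each library, 141 of 3279 regions called under forskolin alone held a CRE (4.3%, interval 3.66 to 5.05%), against 8 of 3442 called under vehicle alone (0.232%, interval 0.118 to 0.458%). Of the 782 CRE regions in those lists, 87 had a peak in both forskolin libraries only (11.1%, where 9.86% of all regions did) and 2 in both vehicle libraries only (0.256%, where 6.87% of all regions did). These 2 were named after their values were seen. One lay at -16328 bp from the start of Cdk18, a cyclin-dependent kinase gene, and the other at 381 bp from the start of the zinc finger gene Zfp273, and both ranked between the 17.1 and 62.0 percentiles of those vehicle lists. A further 561 were in all 4 of those lists (71.7%, against 38.2% of all regions).

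By call pattern in the full lists, most CRE regions were shared. Of the 1000 regions, 593 had a peak in all 4 libraries (59.3%, background 31.5% of all 28335 regions). A forskolin-only pattern, a peak in both forskolin libraries and in neither vehicle library, held for 186 (18.6%, background 18.3%), and this share was close to the background. Both forskolin libraries and 1 vehicle library shared 77 regions (7.7%, background 12.1%). A single library gave 138 regions (13.8%, background 30.2%), of which 117 were from forskolin replicate 1 and 21 from forskolin replicate 2. The vehicle-only pattern, a peak in both vehicle libraries alone, held for 0 (background 0.441%), for 2 without forskolin replicate 1 and for 1 without vehicle replicate 2. A further 6 regions had other patterns. Without forskolin replicate 2 the forskolin-only count was 302, since a peak in 1 forskolin library then sufficed.

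Place in the genome split these patterns sharply. A promoter region had its centre within 1 kb of the start of a protein-coding gene, which was so for 487 of the 1000, and the other 513 were distal. Among promoter CRE regions, 438 of 487 had a peak in all 4 libraries (89.9%), against 57.4% of promoter regions without a CRE, and 17 were forskolin-only (3.49%, against 6.77% without a CRE). Ranks were not matched in these shares. At equal forskolin rank, promoter CRE regions below the top class had both vehicle peaks less often than promoter regions without a CRE, as given below. Among distal CRE regions, 169 of 513 were forskolin-only (32.9%, against 24.6% of distal regions without a CRE) and 155 were in all 4 libraries (30.2%, against 15.8%). Distal regions that held only the TGACG core were forskolin-only in 37.9% of cases and in all libraries in 18.8%. Seen by pattern, 9.14% of the forskolin-only CRE regions and 73.9% of those of all libraries were promoters, against 13.1% and 66.5% of the regions of those patterns without a CRE.

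**Figure D3:**
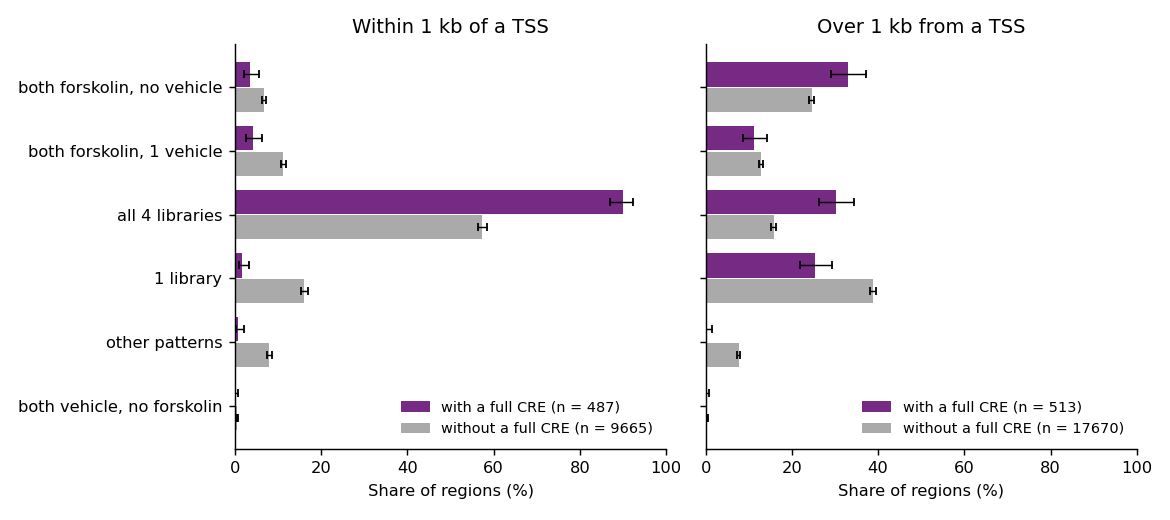
Share of regions (%) with each call pattern, for regions with a full CRE (purple) and without one (grey), at promoters (left) and at distal places (right); bars are 95% Wilson intervals. At promoters 89.9% of the CRE regions had a peak in all 4 libraries, while at distal places 32.9% were forskolin-only and 30.2% were in all libraries.

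Low-ranking CRE regions of the forskolin lists mostly lacked a vehicle peak, and high-ranking ones mostly had one. Where the lower of the 2 forskolin percentiles was at most 25, 55 of 58 distal CRE regions had no vehicle peak (94.8%), against 63.2% of distal regions without a CRE at that rank. Where it was above 90, 2 of 71 distal CRE regions had no vehicle peak (2.82%), against 17.9% without a CRE. At promoters with the lower value at most 25, 1 of 11 CRE regions had peaks in both vehicle libraries (9.09%), against 36.0% without a CRE. From 25 to 50 these promoter shares were 33.3% against 62.1%, and from 50 to 75 they were 82.4% against 87.1%. From 75 to 90 they were 93.9% against 94.8%. Above 90, 283 of 284 promoter CRE regions had peaks in both vehicle libraries (99.6%), against 98.2% without a CRE. The 1 exception was a region at Crem, called in no vehicle library.

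That region led the forskolin-only CRE regions. Crem encodes a CREB-family factor and, from an internal promoter, the cAMP-induced repressor ICER. The forskolin-only Crem region, in an intron at chr18:3281677-3281998, had its CRE at -56 bp from an annotated start and stood at the 96.9 and 95.6 percentiles of the forskolin libraries, with no vehicle peak. A second Crem region, at chr18:3280944-3281266 over an exon, held 2 copies of the CRE. It stood at the 97.4 and 96.0 percentiles in the forskolin libraries and at the 54.5 and 49.7 percentiles in the vehicle libraries. With peaks joined within 500 bp the 2 Crem regions became 1, which had peaks in all 4 libraries and no CRE within 100 bp of its centre, so the forskolin-only call at Crem rested on the joining rule.

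The other leading forskolin-only CRE regions were mostly distal. The one nearest Pik3cd, which encodes the delta catalytic subunit of PI3-kinase, lay at -5177 bp from its start and at the 91.1 and 92.4 forskolin percentiles. A region at -4546 bp from 9430023L20Rik was also 12909 bp downstream of the start of Nr4a1, an immediate-early nuclear receptor gene, and stood at the 90.5 and 92.3 percentiles. The region nearest Pde10a, which encodes a phosphodiesterase that breaks down cyclic nucleotides, lay at -37389 bp and at the 89.8 and 90.8 percentiles. Nedd9, a scaffold of focal adhesions, had one at -51057 bp with the 96.6 and 88.4 percentiles, and Maml3, a Notch coactivator, had one 56631 bp inside the gene with the 94.0 and 87.4 percentiles. Regions nearest Il1rl1, the IL-33 receptor gene, Il17b, a cytokine gene, Lrrc38, Zfp236 and D15Ertd621e made up the rest of the leading 12 apart from Ncald. None of these regions had a peak in a vehicle library, and the nearest gene is given as a position, not as a target.

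Few of the forskolin-only CRE regions were promoters. These 17 included Crem, Ncald, Gm16519, Amotl2, 9330159F19Rik, Cep55, Gpr153, Stk17b, Onecut3, Lrrc67, Col24a1, Heatr8, Pde7b, Gm10369, Slc1a7 and Kcnf1. Ncald encodes neurocalcin delta, a calcium-binding protein, and its CRE was at -42 bp, with forskolin percentiles of 90.7 and 89.6. Amotl2, a regulator of Hippo signalling at cell junctions, had its CRE at -40 bp with percentiles of 80.2 and 80.8. Pde7b, another cyclic AMP phosphodiesterase, had its CRE at -103 bp with percentiles of 53.4 and 24.8, lower than those of Ncald and Amotl2 in both forskolin libraries.

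Regions in all 4 libraries included some of the highest peaks measured. The region nearest Wnt7a, at -29582 bp from that Wnt ligand gene and at -91 bp from the noncoding gene 4930471M09Rik, lay at the 99.96 and 99.99 percentiles under forskolin and at 99.95 in both vehicle lists. Tinf2, which encodes a shelterin protein of telomeres, had its CRE at -53 bp and stood at 99.96 and 99.95 under forskolin, against 99.96 and 99.91 under vehicle. Zfand2a, an arsenite-inducible gene, Aasdh, Magohb of the exon junction complex, and Aptx, a DNA repair gene, were promoters of the same kind, while C87436 and the Myc antagonist gene Mxi1 had their regions 8235 and 3824 bp inside the gene. The lowest percentile of all 8 in any library was 99.79, that of Mxi1 in forskolin replicate 1.

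Within the 593 shared regions, the share with forskolin on top changed with the way of ranking, and stood above the background in each of the 3 ways tried. Both forskolin percentiles lay above both vehicle percentiles in 382 of them (64.4%, background 45.2% of all 8930 shared regions), and both lay below in 5 (0.843%, background 2.61%). The vehicle lists were shorter, and the percentile of a shared peak also depends on how many lower peaks its list holds. Ranked only among the 8930 shared regions, an alternative chosen after seeing the data, 147 lay above (24.8%, background 18.2%) and 159 below (26.8%, background 31.5%). In lists of equal length, 94 of 561 lay above (16.8%, background 13.6%) and 208 below (37.1%, background 46.9%). The count of lower-ranked regions was 10 and 43 without vehicle replicates 1 and 2, and 55 and 11 without forskolin replicates 1 and 2.

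The share with forskolin on top was higher at distal than at promoter CRE regions. Ranked among shared regions, 85 of 155 distal CRE regions had both forskolin values above both vehicle values (54.8%, against 38.0% of shared distal regions without a CRE), and 25 had both below (16.1%, against 18.8%). At promoters, 62 of 438 CRE regions lay above (14.2%, against 7.54%) and 134 below (30.6%, against 38.4%). Median distal percentiles among shared regions were 76.1 and 73.4 under forskolin, against 53.2 and 58.0 under vehicle, and on the full lists they were 90.1 and 85.8, against 70.0 and 62.0. Shared distal regions without a CRE had full-list medians of 72.5 and 63.4 under forskolin, against 50.4 and 38.0 under vehicle. The median difference, forskolin minus vehicle, was 18.1 percentile points on the full lists with or without a CRE. Ranked among shared regions it was 12.9 with a CRE and 4.55 without. Median promoter percentiles among shared regions were 87.5 and 88 under forskolin, against 88.1 and 89.4 under vehicle. On the full lists the promoter medians stood in the other order, at 95.1 and 94.0 under forskolin, against 92.7 and 90.6 under vehicle.

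**Figure D4:**
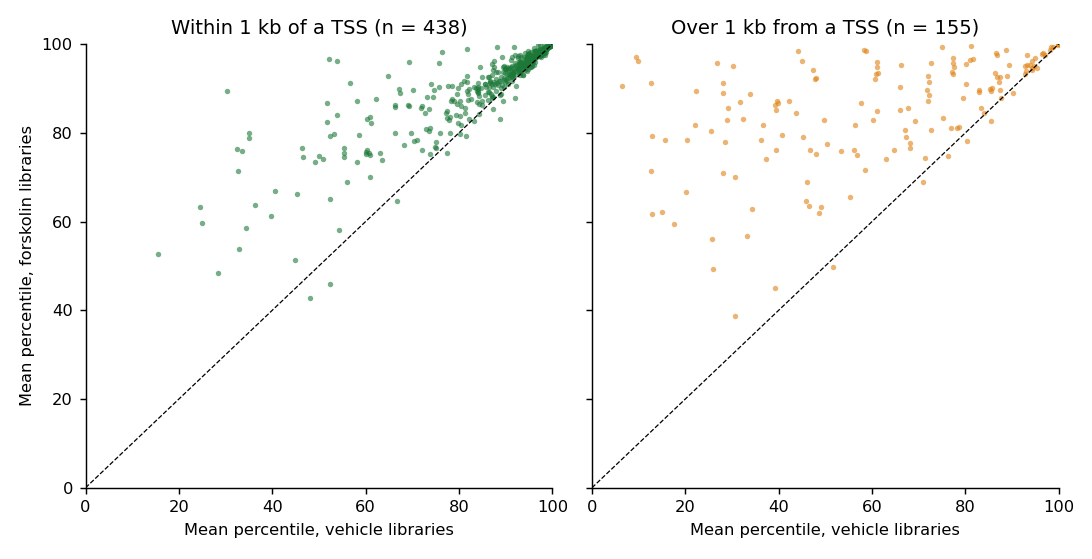
Mean score percentile on the full lists in the forskolin libraries (y axis) against that in the vehicle libraries (x axis) for the CRE regions with a peak in all 4 libraries, at 438 promoters (left) and 155 distal places (right); the dashed line marks equality. Promoter regions crowd along the line near the top, while many distal regions lie far above it.

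Some shared regions stood near the top of the forskolin lists and near the bottom of the vehicle lists. The region 163721 bp from the start of Map2k6, a kinase gene of the p38 pathway, stood at the 98.0 and 96.1 percentiles under forskolin, against 6.79 and 12.1 under vehicle. The region at -4571 bp from Kcne4, which encodes a potassium channel subunit, stood at 96.0 and 96.5, against 15.6 and 4.17. The 8 regions of this kind were picked for that difference, which is a description. Pvr, the gene of an adhesion receptor of the nectin family, had 2 such regions at -5897 and -12520 bp. The first stood at 91.9 and 89.3 under forskolin, against 8.67 and 4.17 under vehicle, and the second at 94.7 and 95.2, against 30.1 and 30.5. Ptpn1, a tyrosine phosphatase gene, Trpm8, a cold-sensing channel gene, Akap13, which encodes an anchor protein for protein kinase A, and BC067074 completed the 8, all at distal places. Ranked among shared regions, the forskolin values of these 8 were also above the vehicle values, while in lists of equal length 6 of the 8 lacked a vehicle peak.

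On the full lists, 4 of the 5 regions with both forskolin percentiles below both vehicle percentiles were promoters. Ppan, a ribosome biogenesis gene, stood at 88.2 and 77.9 under forskolin, against 88.3 and 89.3 under vehicle, a difference of -5.73 percentile points. At Rbm18, Rps29 and Sphk2 the differences were -0.744, -0.682 and -0.123 percentile points. Ranked among shared regions, the number below was 159.

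CRE regions lay at 8 genes that textbooks list as CREB targets. A list of 30 such genes had 22 with a region of any kind within 10 kb of a start, and 8 of the 22 had a CRE region there (36.4%, interval 19.7 to 57.1%), where 816 of 12264 genes with any region did (6.65%). The list was drawn up from genes known for their CREs, with earlier results of these data known, and the share was not tested. The 8 were Crem, Nr4a2, Per1, Vgf, Scg2, Ccna2, Areg and Gem. Fos, Nr4a1, Nr4a3, Sik1 and Bdnf were among the members with none, which says only that the 8 letters are not near the centre of a region there. Only Crem had a forskolin-only one, where 0.514% of genes did, and with peaks joined within 500 bp it had no CRE region and 7 targets remained.

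Percentiles at these targets are those of the full lists, on which 45.2% of all shared regions had both forskolin values on top, unless another scale is named. The CRE at -44 bp of Nr4a2, an orphan nuclear receptor gene, lay in a region at the 99.2 and 99.5 percentiles under forskolin, against 95.5 and 88.1 under vehicle. Scg2, which encodes a secretory granule protein, had its CRE at -1 bp and stood at 86.0 and 86.6, against 72.9 and 65.2. Vgf, a neuropeptide precursor gene, stood at 84.6 and 86.6, against 66.9 and 76.8. Areg, which encodes an EGF receptor ligand, stood at 82.0 and 85.3, against 53.2 and 68.7. Gem, a small GTPase gene, stood at 79.8 and 69.7, against 62.1 and 38.0, and its promoter also held TATAAA. Ccna2, the cyclin A gene, stood at 98.5 and 96.7, against 97.5 and 92.0. Ranked only among shared regions, both forskolin values lay above both vehicle values at Nr4a2, Scg2, Gem and the second Crem region, while the groups overlapped at Vgf, Areg and Ccna2. On that scale Areg stood at 59.1 and 72.7 under forskolin, against 31.8 and 65.2 under vehicle, and Vgf at 64.5 and 74.8, against 48.8 and 74.1. Per1, a circadian clock gene, stood at 97.4 and 96.1 under forskolin and at 91.3 in vehicle replicate 1, with no peak in vehicle replicate 2.

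Counts in other gene groups were too small to set apart from the 6.65% of all genes with a region. Among bZIP factor genes 2 of 25 with any region had one (8%, interval 2.22 to 25.0%), Crem and Jund, and among cAMP pathway genes 1 of 24 did (4.17%, interval 0.739 to 20.2%), Prkar1a, which encodes a regulatory subunit of protein kinase A. Among genes of housekeeping processes it was 3 of 20 (15%, interval 5.24 to 36.0%), namely Cycs for cytochrome c, Ube2b and Sdhb, all with a peak in every library. Among osteoblast genes it was 1 of 18 (5.56%, interval 0.988 to 25.8%). That gene was Runx2, the master regulator of the lineage, with a forskolin-only intronic region at -2056 bp, at the 73.1 and 69.7 forskolin percentiles. Adipocyte, chondrocyte, muscle and haematopoietic marker genes with any region numbered 1, 4, 1 and 1, and 0 of these 7 had a CRE region. A peak list shows binding near a gene and not its expression.

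The element stood close to the start of transcription. Of 486 regions whose CRE was within 1 kb of a start, 309 held it between -150 and -1 bp (63.6%), 77.8% held it upstream, and the median position was -27 bp with quartiles of -78 and -3 bp. A TATAAA motif 20 to 40 bp upstream of the start was found at 7 of the 487 promoter regions (1.44%, interval 0.698 to 2.94%), against 73 of 9665 promoters of regions without a CRE (0.755%, interval 0.601 to 0.949%). The 7 were Azin1, Errfi1, Flt1, Gem, Id1, Taf4b and Tubb2a.

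Most full CREs of the genome were in no CRE region. Chromosomes 1 to 19, X and Y hold 14303 copies of the palindrome, and 1032 of them lay in the CRE regions (7.22%, interval 6.80 to 7.65%). Within 1 kb of a start the share was 42.6% (500 of 1175), against 4.88% at 1 to 10 kb, 4.73% at 10 to 100 kb and 2.23% beyond. Near starts it followed CpG content. The CpG ratio, the number of CpGs over that expected from the C and G content of the surrounding 500 bp with the CRE itself masked, was 0.75 or more at 417 CREs near a start, and 305 of them were in a CRE region (73.1%). Below 0.25 only 11 of 245 were (4.49%).

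Away from starts, CREs in repeated sequence had to be set apart. Of all CREs, 11402 had a 28 bp context found once in the genome and 1027 of them were in a CRE region (9.01%), while 2480 had a context found 10 times or more and 2 of them were (0.0807%). A single context accounted for 2107 CREs, 1 of them in a CRE region. The sources used here do not say how reads from such repeats were placed, so few peaks there is not a measured absence of binding. Among distal CREs with a context found once, the share in a CRE region was 3.95% at CpG ratios under 0.25, 5.88% from 0.25 to 0.5, 13.2% from 0.5 to 0.75 and 34.3% at 0.75 or more, the last from 24 of 70.

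**Figure D5:**
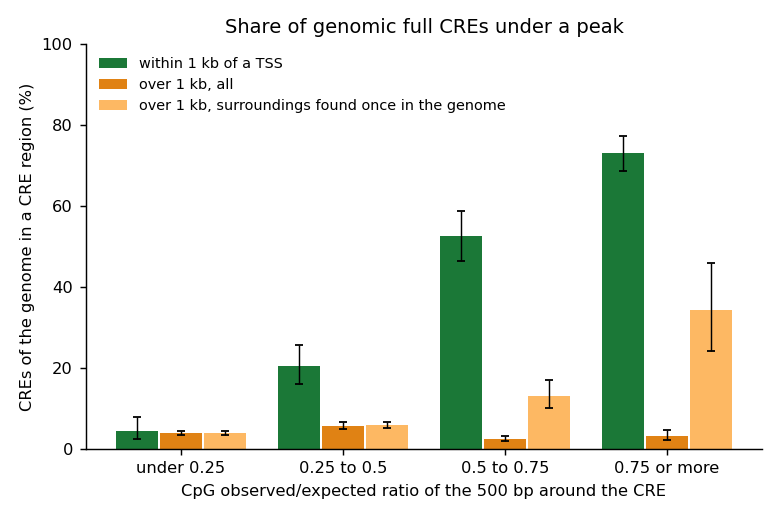
Share of the full CREs of the genome that lie in a CRE region (%), by the CpG observed/expected ratio of the surrounding 500 bp, within 1 kb of a start (green), over 1 kb away (orange) and over 1 kb away with a 28 bp context found once (light orange); bars are 95% Wilson intervals. The green bars climb to 73.1%, and the light orange bars to 34.3%, as the CpG ratio goes up.

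Forskolin-only CRE regions were poor in CpG. Their median CpG ratio was 0.234, and it was 0.276 in forskolin-only regions without a CRE. At CREs outside all regions it was 0.249, but repeated contexts were not left out there. Most distal CREs with a context found 10 times or more had a ratio of 0.5 to 0.75 (1727 of 2455). Of distal CREs with a context found once, in a region or not, 6430 of 10282 had a ratio under 0.25. In the CRE regions of all libraries it was 0.756, against 0.732 in shared regions without a CRE. Among distal CRE regions alone the medians were 0.230 for forskolin-only regions and 0.360 for those of all libraries, a smaller gap in the same direction.

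The bases beside the palindrome also differed by call pattern and by place. Read outward on both strands, the base just before the element was G in 39.4% and T in 8.80% of flanks in the CRE regions, against 30.2% and 21.8% at CREs outside all regions. Repeated contexts were not left out of these outside CREs, and GTGACGTCAA, with a G flank and a T flank, made up 23.6% of them. The base just before the element was G in 27.7% of flanks of forskolin-only regions and 46.8% of flanks of regions of all libraries, and T in 12.6% and 6.91% of them. By place it was G in 48.9% of flanks at promoter and 30.3% at distal CRE regions, and T in 6.78% and 10.7%. Call pattern and place were not set apart for these bases. Of the genome's GTGACGTCAC sites 17.2% were in a CRE region, the highest share of the 10 possible 10 bp forms, and of its TTGACGTCAA sites 3.24% were. The lowest share over all CREs, 1.95%, was that of GTGACGTCAA, and among contexts found once it was 7.70%.

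Sites of other factors were counted in the window searched for the CRE. The AP-1 site TGAGTCA was in 12.7% of distal CRE regions, against 19.8% of distal regions without a CRE, and the RUNX site TGTGGT in 24.0%, against 32.6%. The CCAAT box CCAAT differed little, at 26.3% of CRE regions and 25.9% of the others. At promoters the GC box GGGCGG stood at 47.6% and 47.3% and the ETS site CCGGAA at 21.8% and 23.6%. Distal forskolin-only CRE regions held the AP-1 site in 14.2% and the RUNX site in 27.8% of cases, and distal CRE regions of all libraries in 8.39% and 20%. The Wilson intervals of these patterns overlapped for each site. Distal regions without a CRE stood in the same order. The AP-1 site was in 23.72% of their forskolin-only regions and 14.26% of those of all libraries, and the RUNX site in 36.35% and 32.57%. A TGACG core apart from the full CRE was in 21.2% of CRE regions, and any TGACG core was in 26.5% of regions without a full CRE.

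Clusters of the element were rare. A single copy was found in 971 regions, 2 copies in 27, 3 in 1 and 4 in 1. In the 27 the copies started 13 to 175 bp apart, with a median of 28 bp, and in 14 they were less than 30 bp apart. Regions with 2 copies ranked higher, with median percentiles of 93.2 and 94.1 under forskolin and 93.1 and 89.3 under vehicle, against 86.3 and 86.2 under forskolin and 87.4 and 85.5 under vehicle for 1 copy. Nup133, a nuclear pore gene, Csnk1g2, a casein kinase gene, and Braf, a kinase gene of the MAP kinase pathway, were promoters with 2 copies. They were picked from the 27 for their high forskolin percentiles, so their ranks do not bear on that comparison. The lowest percentile among them was 98.59, that of Braf in vehicle replicate 2. The second Crem region, also with 2 copies, stood at 54.5 and 49.7 under vehicle. The 2 regions with more copies ranked low, and their sequences repeat a short unit around the element. How reads from repeats were placed is not stated, so these ranks are not read as an effect of copy number. The 4 copies in an intron of Parm1 had a peak in forskolin replicate 1 alone, at the 8.86 percentile. The 3 copies near Tns1, which encodes the focal adhesion protein tensin, were forskolin-only at the 39.9 and 19.6 percentiles.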

How the data were processed

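Each of the 4 libraries had 1 deposited peak list of its own, made by the authors. The labels also name an input library of another series, which was not used here. The submitters' processing notes name Bowtie, HOMER and build mm9. Versions, thresholds, filters and the treatment of reads that map to several places are not stated in those notes or the labels. A list gives the place and a score of each peak, and all peaks are 301 to 311 bp wide. The score is the authors' deposited value with no stated scale, and it served only to rank the peaks of 1 list against each other. The depth of the libraries is not stated. Scores below 50 fell on whole steps in 98.75% and 100% of cases in forskolin replicates 1 and 2 and 99.97% and 99.93% in vehicle replicates 1 and 2, where chance gives 41.9%, 14.5%, 43.1% and 44.6%. If 1 step is 1 tag, forskolin replicate 2 had 0.347 times the depth of forskolin replicate 1, and vehicle replicates 1 and 2 had 1.03 and 1.07 times that depth.

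Peaks were joined where they shared 1 bp. The mm9 sequence (NCBIM37) and GENCODE M1 starts of 22225 protein-coding genes were used, on 21 chromosomes. The motif search covered both strands within 100 bp of a centre. Shares have 95% Wilson intervals, which cover counting error only, and treat regions as independent. Values per library were compared with exact permutation tests, which measure only the spread between these libraries. Python 3.11.15, numpy 2.4.6, scipy 1.17.1, pysam 0.24.0, samtools 1.23.1 and matplotlib 3.10.9 were used, and the joining and motif search were tested on simulated data. The members, gene lists and tests were chosen with earlier results of these data known. Named regions were the 12 highest forskolin-only regions by the lower forskolin percentile, the 8 highest regions of all libraries, the 8 largest and 4 lowest rank differences without overlap, up to 5 vehicle-only regions (there were 0), listed CREB targets, and the 5 regions with most copies. Ties in the number of copies went to the regions with the highest lower forskolin percentile. A region takes the name of the nearest protein-coding start. A gene and a sequence among those picked are not reported here. Alternatives covered the motif window, the joining rule, the part of each list used, each library left out, the start annotation, the CpG window and the gene distance.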

Additional observations from a re-analysis of the deposited data

How the results depend on the processing

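For 14 results, 147 values were recomputed under alternatives, of which 126 kept their direction and size, 20 moved and 1 reversed. A match anywhere in the region gave 1 vehicle-only CRE region and 8 ranked lower under forskolin. With the top 50% of each list, 15.1% of forskolin-only and 81.9% of all-library CRE regions were promoters, and their CpG ratios were 0.26 and 0.798. Lists of equal length gave 87 forskolin-only and 2 vehicle-only CRE regions, 94 ranked higher and 208 lower, and reversed the difference in the share of peaks with a CRE to 1.42 percentage points. Ranking among shared regions, chosen after seeing the data, gave 147 higher and 159 lower. Leaving out 1 library at a time, which also loosens the call patterns, gave 208 to 302 forskolin-only CRE regions, 0 to 2 vehicle-only ones, 10 to 55 ranked lower, and 69.4 to 74.2% of all-library CRE regions at promoters. With the replicate number as a block, the share of peaks with a CRE differed by -0.936 percentage points (exact permutation p = 0.5, the smallest that 2 pairs allow). Same-numbered libraries deviated together only weakly (correlation 0.18 over 8930 regions), and with 2 pairs the numbers were not taken to pair the samples. Joining peaks differently moved none of these results by over 1.5 times. Of the 45 named regions, 33 kept their pattern with the top 50% of each list, 37 in lists of equal length, 43 to 44 with 1 library left out and 40 to 45 kept it in the alternative windows and joins. The 8 regions with the largest rank difference all lost a vehicle peak with the top 50% of each list, and 6 of the 8 did in lists of equal length.

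With 2 libraries per treatment no comparison between the treatments can reach an exact p below 0.333. Library depth is not stated, input reads were not used here, and a missing peak means that none was called, not that there was no binding. Of a region called in 1 library only, the data hold no replicate.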
